A study of Mus musculus with 2 samples.

Results

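Laminins are large glycoproteins of the basement membrane, the sheet of matrix on which an epithelium rests. Each laminin is a trimer of 1 α, 1 β and 1 γ chain, each chain made from a gene of its own, and trimers are named by their chains. In the mammary gland the basal (myoepithelial) layer lies directly on this sheet, secretes laminins into it and holds on to it through integrins and dystroglycan. Trimers with α3 and β3 anchor hemidesmosomes, trimers with α5 and α1 are found in epithelial basement membranes, and trimers with α2 and α4 are best known from muscle, nerve and vessels.

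The genes described here were 9 laminin chains, chosen by name from the 49492 genes of the count table: the α chains *Lama1* to *Lama5*, the β chains *Lamb1* to *Lamb3*, and the γ chain *Lamc1*. RNA was sequenced from mammary basal cells of adult wild-type female mice, which the study sorted as CD24+CD29hi cells without the blood and endothelial markers CD45, CD31 and TER119. The CL basal library came from mice treated with clodronate liposomes (CL), vesicles that kill the macrophages that take them up. The Ctrl basal library came from mice whose label gives no treatment, while the text of the series speaks of saline, and both were labelled day 7. The study names C57/B6 mice for other treatments with CL, but the strain and the number of animals behind these libraries were not given in the sources used here, and clodronate liposomes reach macrophages outside the mammary gland too.

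With 1 library per group, none of the differences could be checked in replicates, and no test between conditions is possible. Ctrl basal held 37846008 counts and CL basal 38962512. The 95% intervals cover counting error only and are too narrow, because counts of 1 to 20 were mostly even numbers (Ctrl basal 67.9%, CL basal 68.7%), as happens when both mates of a read pair are counted. The 10 basal markers were all detected, with log2 fold changes from -0.23 (*Krt5*) to 0.33 (*Mylk*) and a summed level, in library-scaled counts (CPM), of 19780 in Ctrl basal and 20720 in CL basal. The 11 luminal markers summed to 5296 CPM in Ctrl basal and 3284 in CL basal. In bulk RNA, fewer cells of a type and less RNA per cell cannot be told apart.

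Upstream sequences are shown for *Lama2*, the α chain that differed most between the libraries. They are also shown for *Lama5*, the other α chain with a window used here, so that both can be read beside their values. RefSeq windows (GRCm38.p6) were used for 5 of the 9 chains. No window of the other chains, among them *Lama3*, was used, which does not mean that they lack an entry. Each run is the 250 bases before the annotated start, 5′ to 3′ on the gene's strand (minus for both), with every CpG dinucleotide in capitals. CpG reads the same on both strands.
Lama2, chr10:27616943-27617192: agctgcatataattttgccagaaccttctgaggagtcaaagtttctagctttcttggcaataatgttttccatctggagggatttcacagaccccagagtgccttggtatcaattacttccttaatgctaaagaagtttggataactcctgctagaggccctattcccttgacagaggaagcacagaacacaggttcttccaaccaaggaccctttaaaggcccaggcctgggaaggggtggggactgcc
Lama5, chr2:180225860-180226109: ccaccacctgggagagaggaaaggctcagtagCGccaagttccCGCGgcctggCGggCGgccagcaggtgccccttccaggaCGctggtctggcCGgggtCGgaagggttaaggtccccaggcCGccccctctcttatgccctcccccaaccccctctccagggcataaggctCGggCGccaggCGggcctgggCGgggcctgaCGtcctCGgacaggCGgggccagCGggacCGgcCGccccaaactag
The *Lama2* window held 0 CpG and the *Lama5* window 19, against a median of 6 over 32851 RefSeq windows of this length. Windows with 0 CpG made up 7.87% of all windows, and 82.1% held 19 or fewer. The windows of *Lamb1* and *Lamb2* held 14 and 3 CpG, and *Lamb3* has a pair of windows with 2 and 3. The gene model of *Lama2* in the count table reaches further upstream than this start, to 27619758, so the window need not be the start in use in these cells.

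All 9 chains were detected in both libraries and passed the filter of 20 counts over both. Levels are given as RPKM, counts scaled to library size and divided by kilobases of exon, and ran from 0.579 to 60.9 RPKM in Ctrl basal and from 0.229 to 53.8 in CL basal. *Lama3* was the most abundant α chain and *Lamb3* the most abundant β chain, and *Lama2* was the least abundant of all.

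Among the α chains, *Lama3* (chromosome 18, 12333819 to 12583013, plus strand; coordinates throughout are GRCm38), the α chain of hemidesmosome anchorage, had 22890 counts in Ctrl basal and 22214 in CL basal. Its level was 55.5 RPKM in Ctrl basal (95% interval 54.8 to 56.3) and 53.8 in CL basal (53.1 to 54.5). The gene makes a short and a long α3 form, which gene counts do not separate, and 197 of its 10745 exonic bases are shared with the opposite-strand gene *Gm29200*, which had 838 and 812 counts. *Lama5* (chromosome 2, 180176373 to 180225859, minus strand), the widespread α chain of adult epithelia, had 5830 counts in Ctrl basal and 5436 in CL basal, levels of 13.3 and 12.4 RPKM. *Lama3* was thus several times above *Lama5* in both libraries.

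*Lama1* (chromosome 17, 67697265 to 67822645, plus strand), the α chain of the classical embryonic laminin, which myoepithelial cells also make, had 1265 counts in Ctrl basal and 1231 in CL basal, levels of 3.46 and 3.36 RPKM. *Lama4* (chromosome 10, 38965515 to 39110188, plus strand), an α chain of vessel walls, fat and muscle, had 1441 and 1602 counts, levels of 3.11 and 3.45 RPKM. *Lama2* (chromosome 10, 26980036 to 27619758, minus strand), the α chain of muscle and peripheral nerve that is mutated in a congenital muscular dystrophy, had 363 counts in Ctrl basal and 144 in CL basal. Its level was 0.579 RPKM in Ctrl basal (0.521 to 0.642) and 0.229 in CL basal (0.193 to 0.270). *Lama1* was above *Lama4* in Ctrl basal by a ratio of 1.11 (1.03 to 1.20), and their levels were not distinguishable in CL basal (*Lama4* over *Lama1* 1.03, 0.952 to 1.11). With the length of the longest coding transcript of GENCODE M21 in place of the exon length of the count table, a setting chosen after seeing the data, *Lama1* was instead below *Lama4* in both libraries, at 0.557 times its level in Ctrl basal and 0.488 times in CL basal.

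Among the β chains, *Lamb3* (chromosome 1, 193207699 to 193343878, plus strand), the partner of α3, had 14064 counts in Ctrl basal and 12515 in CL basal, levels of 55.5 RPKM (54.5 to 56.4) and 49.2 RPKM (48.4 to 50.1). *Lamb1* (chromosome 12, 31265234 to 31329644, plus strand), the common β chain of many trimers, had 12993 and 12591 counts, levels of 34.2 and 33.0 RPKM. *Lamb2* (chromosome 9, 108479736 to 108490530, plus strand), which replaces β1 at synapses, in the kidney and in some epithelia, had 7017 and 6761 counts, levels of 30.1 and 28.9 RPKM. *Lamb3* was above *Lamb1*, and *Lamb1* above *Lamb2*, beyond counting error in both libraries.

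*Lamc1* (chromosome 1, 153218922 to 153332786, minus strand), the common γ chain of many trimers, had 19332 counts in Ctrl basal and 16926 in CL basal, levels of 60.9 and 53.2 RPKM. In Ctrl basal *Lama3* and *Lamb3* stood side by side, with a ratio of 1.002 (0.981 to 1.02), and *Lamc1* was above both. In CL basal *Lama3* stood beside *Lamc1* (ratio 1.01, 0.990 to 1.03), and *Lama3* was 1.09 times *Lamb3*. Parts of this order turn with the gene length. With the longest coding transcript as the length, *Lamb3* was the highest of the 9 chains in both libraries, 1.14 times *Lamc1* in Ctrl basal and 1.16 times in CL basal, and *Lama3* was at 0.751 and 0.819 times *Lamb3*.

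**Figure D1:**
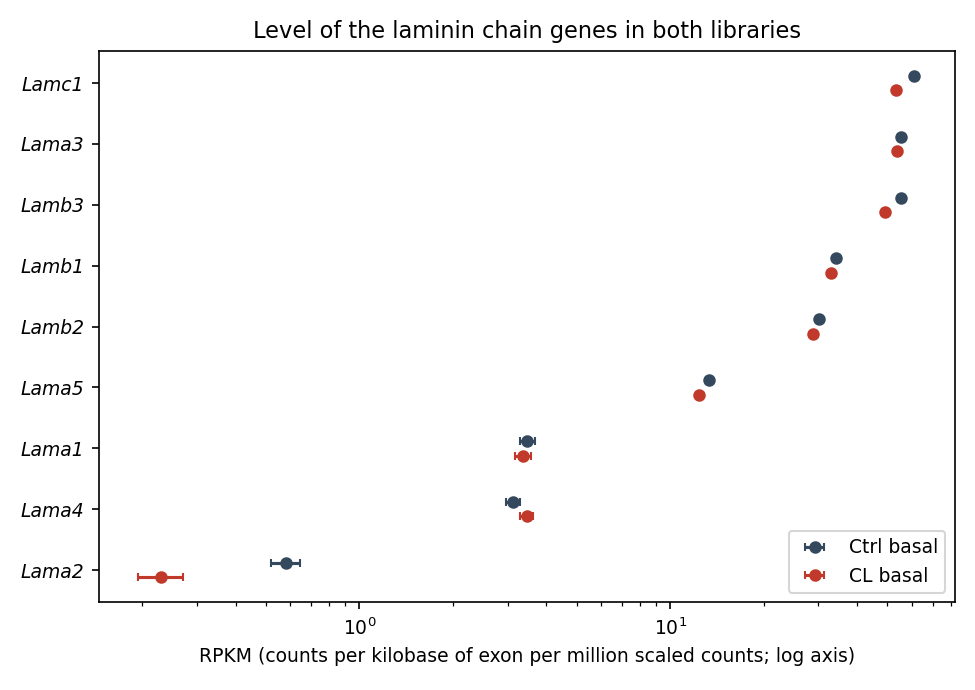
Level of the 9 laminin chains in RPKM (log axis) in the Ctrl basal and CL basal libraries, 1 library each, with 95% Poisson intervals. The points of both libraries lie close together for each gene except *Lama2*, which is at 0.579 RPKM in Ctrl basal and 0.229 in CL basal.

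A trimer holds 1 chain of each class, so the share of each α and β chain in its class was computed from the RPKM values. *Lama3* made up 73.0% of the α chain level in Ctrl basal and 73.4% in CL basal, and *Lama5* 17.5% and 16.9%. *Lama1* made up 4.56% and 4.59%, *Lama4* 4.09% and 4.71%, and *Lama2* 0.762% and 0.313%. Of the β chain level, *Lamb3* held 46.3% in Ctrl basal and 44.3% in CL basal, *Lamb1* 28.5% and 29.7%, and *Lamb2* 25.1% and 26.0%. The composition of both classes thus differed by less than 3 percentage points for any chain. Summed over a class, the β chains were at 119.7 RPKM in Ctrl basal and 111.2 in CL basal and the α chains at 76.0 and 73.2. At these lengths the α chains thus had the lower summed level in both libraries. The α sum is mostly *Lama3*, whose short and long forms were not given separate lengths. The order of the sums was not tested with the length of the short form.

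**Figure D2:**
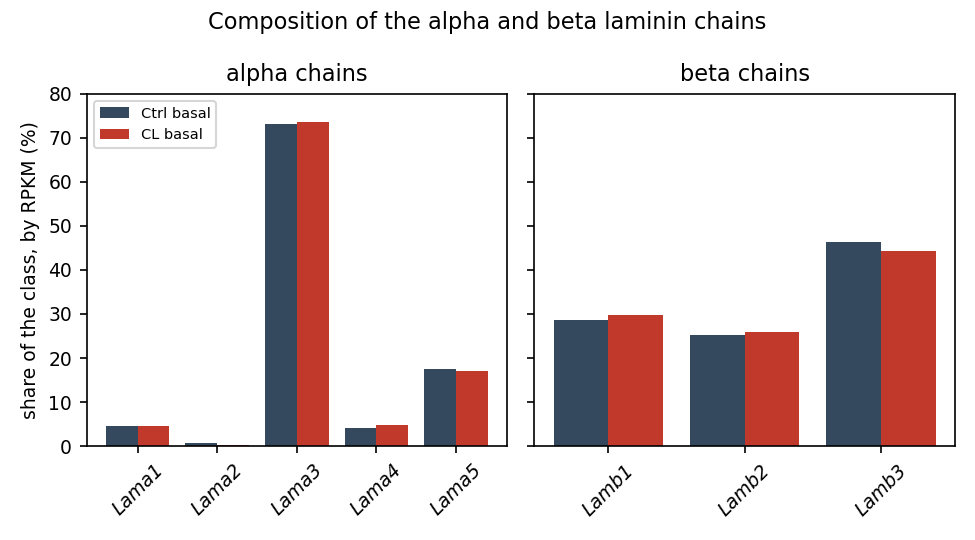
Share of each chain in the summed RPKM of its class (percent), for α and β chains, in Ctrl basal and CL basal (1 library each, no error bars). The bars of both libraries are nearly level, with *Lama3* at 73.0% and 73.4% of the α chains and *Lamb3* at 46.3% and 44.3% of the β chains.

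These shares rest on the exon length in the count table, which joins the exons of all transcripts of a gene. With the longest coding transcript instead, *Lama4* was at 7.71% of the α chain level in Ctrl basal and 8.85% in CL basal, above *Lama1* in both, *Lama2* was at 1.22% and 0.501%, and *Lama3* at 70.2% and 70.4%. The rank of *Lama1* against *Lama4*, like that of *Lama3*, *Lamb3* and *Lamc1*, therefore depends on the length used, while the fold change of a gene between the libraries uses no length.

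The comparison of CL basal with Ctrl basal addressed which genes of basal cells differ after macrophages are depleted. Of the 9 laminin chains, 1 was lower and 0 were higher past 1.5-fold, against 11.7% of all 17356 tested genes lower and 6.34% higher. Past 2-fold, the same chain was lower, against 4.78% of tested genes lower and 2.07% higher. That chain was *Lama2*. A count of 1 in 9 is close to the share over all genes, so the count is no result about the family. The other 8 chains had log2 fold changes between -0.19 and 0.15, and the median of the 9 was -0.06 beside -0.01 over all tested genes.

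*Lama2* had a log2 fold change (CL basal over Ctrl basal) of -1.33 (95% exact binomial interval -1.63 to -1.05), a level 2.505 times as high in Ctrl basal as in CL basal. Of the 6410 genes of like abundance (100 to under 1000 counts in all), 1.28% had a log2 fold change as low or lower, and 12.2% were lower past 1.5-fold. Under the other scalings, filters, prior counts and corrections tried, the value ran from -1.36 to -1.26. None of its exonic bases is shared with another gene of the table. Whether it exceeds the spread between animals cannot be told from 1 library per group. A p-value here follows from the spread that is assumed and is no test of the conditions: edgeR's exact test gave *Lama2* an adjusted p of 1.51e-05 when the coefficient of variation was set to 0.1, and 0.157 when it was set to 0.2.

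The α3 and β3 chains of hemidesmosome anchorage stayed within 1.5-fold. *Lama3* had a log2 fold change of -0.05 (-0.07 to -0.02) and *Lamb3* of -0.17 (-0.21 to -0.14). Of the 1505 genes with at least 10000 counts, 24.1% were as low as *Lama3* or lower, and 9.57% as low as *Lamb3*. *Lamc1* was the lowest of the abundant chains, at -0.19 (-0.22 to -0.17), with 8.11% of genes of this class as low or lower, and the median of the class was 0.09. The SD over the genes of this class was 0.24, so *Lamb3* and *Lamc1* lay more than 1 SD below its median.

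*Lama5* had a log2 fold change of -0.10 (-0.16 to -0.05), *Lamb1* of -0.05 (-0.08 to -0.01) and *Lamb2* of -0.06 (-0.11 to -0.01). *Lama1* had -0.04 (-0.16 to 0.07), a difference not detectable at this depth. *Lama4*, at 0.15 (0.05 to 0.25), was the only chain with a value above 0, and 52.4% of the 5592 genes with 1000 to under 10000 counts had a change of at least this size in either direction. Of the 9 intervals, 7 lay below 0, 1 above and 1 spanned it, also with total counts or DESeq2 size factors. With upper quartile scaling 4 lay below 0, 1 above and 4 spanned it, those of *Lama1*, *Lama3*, *Lamb1* and *Lamb2*. Since all genes share 1 scaling, small values of 1 sign can move together: once a trend with abundance was taken out of the ratios, the chains other than *Lama2* lay between -0.28 (*Lamc1*) and 0.12 (*Lama4*).

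**Figure D3:**
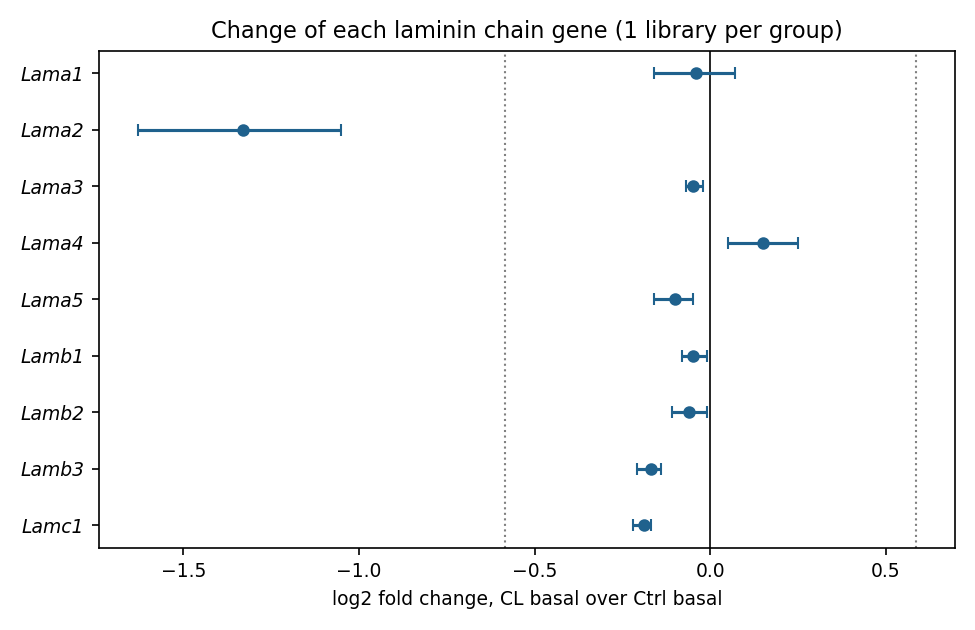
Log2 fold change (CL basal over Ctrl basal) of the 9 chains, with 95% exact binomial intervals that cover counting error only, and dotted lines at 1.5-fold. *Lama2* lies at -1.33, past the line, and the other 8 chains lie between -0.19 and 0.15.

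**Figure D4:**
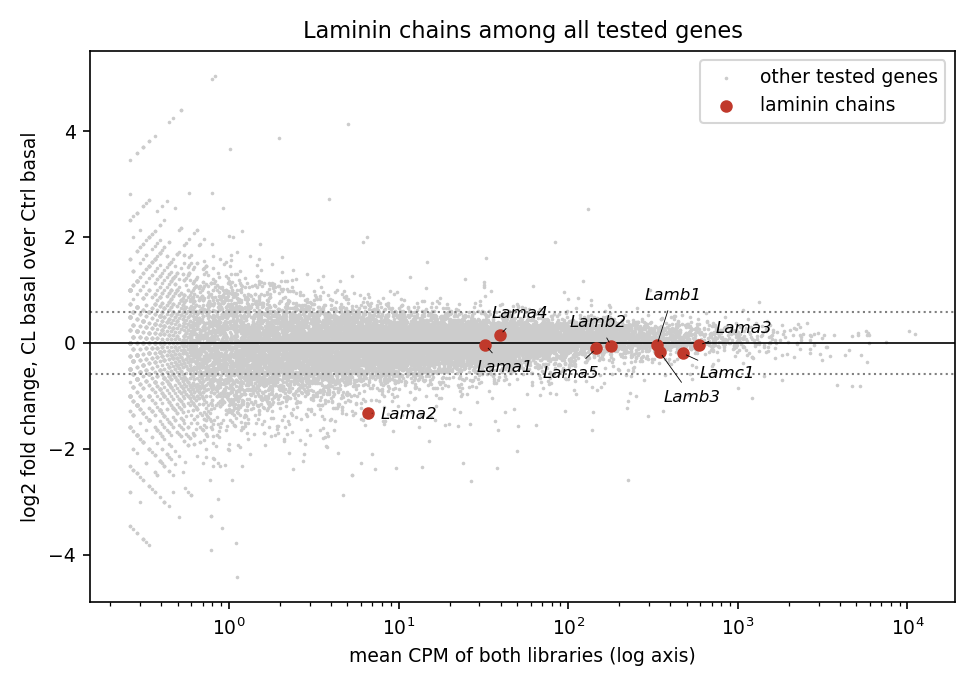
Log2 fold change of all 17356 tested genes against their mean CPM (log axis), with the 9 laminin chains in red and dotted lines at 1.5-fold. The spread of grey points narrows with abundance; *Lama2* lies at the lower edge of genes of its abundance, and the other 8 chains lie within the bulk.

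Chains that take each other's place were then set against each other within the libraries, which removes the library scaling. The 13 pairs were the 10 pairs of α chains and the 3 pairs of β chains, and their intervals use a normal approximation on the counts. The log2 fold change of *Lama2* was below that of each other α chain, from -1.23 against *Lama5* (interval -1.52 to -0.95) to -1.49 against *Lama4* (-1.78 to -1.19). All 4 of these intervals excluded 0 also with the counts halved. In the 9 pairs without *Lama2* the difference was at most 0.25, between *Lama4* and *Lama5* (0.14 to 0.37).

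For *Lama3* and *Lama5*, the main α chains, the difference was 0.06, with an interval whose lower bound touched 0 (upper bound 0.12). *Lamb1* and *Lamb2* differed by 0.01 (-0.05 to 0.07). *Lamb3* was lower than both, by 0.12 against *Lamb1* (0.07 to 0.17) and 0.11 against *Lamb2* (0.06 to 0.17). Of the 9 pairs, 5 intervals excluded 0, and 4 did so with the counts halved. *Lama1* against *Lama4* (-0.19, -0.34 to -0.04) was the pair that did not.

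*Lama2* is a chain of mesenchymal, muscle and nerve basement membranes, so markers of such cells are given beside it. The sort for CD24+CD29hi cells without CD45, CD31 and TER119 selects against stromal cells that lack CD24 and against blood cells, so these markers show what was detected after that gate. Counts of markers past 1.5-fold are to be read beside the share of all tested genes that were lower, 11.7%, which was 28.4% for genes with 20 to under 100 counts, 12.2% for 100 to under 1000 and 2.29% for 1000 to under 10000. All 9 fibroblast markers were detected in both libraries and summed to 490.5 CPM in Ctrl basal and 464.8 in CL basal, and 2 of the 9 were lower past 1.5-fold (*Dcn*, 2356 and 1462 counts, and *Lum*, 128 and 34 counts). The median log2 fold change of the 9 was -0.49, with 7 below 0. The sum is weighted by *Col14a1*, which had 8967 counts in Ctrl basal and 9823 in CL basal (0.13). The 7 pericyte markers summed to 154.0 CPM in Ctrl basal and 100.7 in CL basal, and 5 of the 7 were lower past 1.5-fold (3 of 4 with 100 to under 1000 counts and 2 of 3 with 1000 to under 10000), and the list ran from -0.81 (*Abcc9*, 535 and 306 counts) to -0.48 on the log2 scale. The 8 skeletal muscle markers summed to 11.6 CPM in Ctrl basal and 7.93 in CL basal, and 5 were lower and 1 higher past 1.5-fold. All 5 lower markers had only 20 to under 100 counts, a class in which 46.6% of all genes passed 1.5-fold in either direction. Among them *Myh4*, a fast muscle myosin, had 80 and 4 counts and *Ckm*, the muscle creatine kinase, 26 and 2, while *Ttn* had 56 and 96.

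The 6 Schwann cell markers in the table, of which *Sox10* is also made by mammary epithelial cells, summed to 177.7 and 173.5 CPM, with 0 of 5 tested genes past 1.5-fold, beside 11.7% lower and 6.34% higher over all tested genes. The 7 adipocyte markers summed to 127.2 CPM in Ctrl basal and 94.5 in CL basal, with 2 of 4 tested genes lower past 1.5-fold, *Lep* (88 and 52 counts) and *Plin1* (30 and 12). That sum is almost all *Fabp4* (4648 and 3465 counts), which endothelial cells also express, while *Adipoq* had 5 and 10 counts and *Cidec* 8 and 6. *Foxd3* and *Retn* were at 0 in Ctrl basal. None of the fibroblast, pericyte or skeletal muscle markers was at 0 in either library. The part of these cells in the value of *Lama2* was not tested. For *Lama4*, a chain of vessel walls, the 10 endothelial markers summed to 481.9 CPM in Ctrl basal and 391.4 in CL basal with a median log2 fold change of -0.27, while *Lama4* itself was at 0.15. The endothelial markers were present although CD31+ cells were sorted out. The 8 macrophage markers, which the CD45 gate selects against, summed to 17.1 CPM in Ctrl basal and 13.3 in CL basal. All had few counts and they did not share a direction. Of 6 tested, 5 were below 0, among them *Mrc1* (168 and 86 counts), and 1 was above, *Csf1r* (64 and 89). *Adgre1* had 7 and 10 counts, under the filter.

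**Figure D5:**
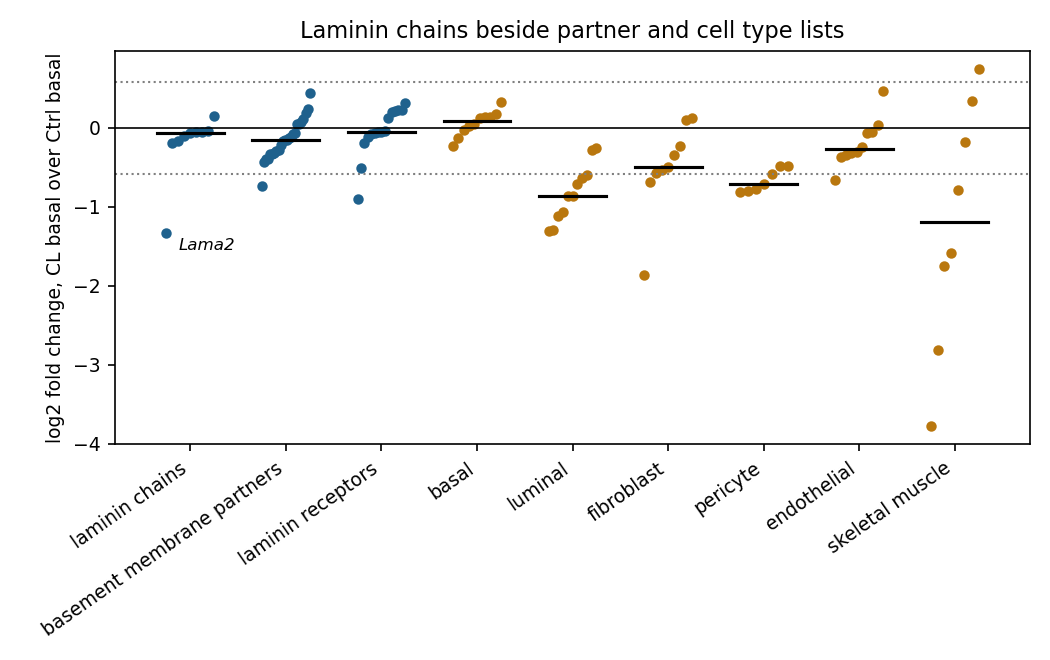
Log2 fold change of each tested gene (points) and the median (black line) of the laminin chains, basement membrane partners and laminin receptors (blue) and of cell type marker lists (orange), with dotted lines at 1.5-fold. The laminin chains lie near 0 with *Lama2* at -1.33, and the pericyte and luminal markers lie below 0 as a whole.

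Other components of the sheet bind laminin or form its second network. Of 24 partner genes tested, 1 was lower and 0 higher past 1.5-fold, beside 11.7% lower and 6.34% higher over all tested genes, and the median log2 fold change was -0.16. These shares over all genes fall with abundance: of genes with 1000 to under 10000 counts 2.29% were lower past 1.5-fold, and of those with at least 10000 counts 1.93%. Of the partner genes, 9 had at least 10000 counts and 6 had 1000 to under 10000, so the low count of genes past 1.5-fold is no result about the list. The lower gene was *Frem2*, a matrix protein of epithelial sheets, with 321 counts in Ctrl basal and 192 in CL basal (-0.74, -1.01 to -0.48). The main collagen IV chains *Col4a1* (70117 and 57887 counts) and *Col4a2* (40750 and 37383) had log2 fold changes of -0.28 and -0.13. *Nid1*, which links laminin to collagen IV, had 2829 and 2633 counts (-0.11), and *Hspg2* (perlecan) 9529 and 8540 (-0.16). *Agrn*, a proteoglycan that binds laminin coiled coils, had 4700 and 5101 counts (0.11). *Col7a1*, the anchoring fibril collagen, had 30952 and 23636 counts (-0.39), *Sparc*, a collagen-binding matrix protein, had 30464 and 28866 (-0.08), and *Col4a6* had the highest value, 0.44, with 4136 and 5641 counts.

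Among 15 laminin receptors, 1 was lower and 0 higher past 1.5-fold, with a median of -0.05, and 9 of the 15 had at least 10000 counts. A count of 1 in 15 is below the 11.7% over all tested genes, and is no result about the list either. The lower gene was *Itga2*, the α2 subunit of a collagen and laminin receptor, with 1715 counts in Ctrl basal and 920 in CL basal (-0.90, -1.02 to -0.79). The main laminin integrin subunits were closer to 0: *Itga3* had 10046 and 9726 counts (-0.05), *Itga6* 11400 and 12403 (0.12) and *Itgb1* 32056 and 31272 (-0.04). *Itgb4*, the α6 partner that is specific to hemidesmosomes, had 8932 and 6291 counts (-0.51, -0.56 to -0.46), short of 1.5-fold. *Dag1* (dystroglycan) had 5346 and 6662 counts (0.31). The syndecan *Sdc4*, a heparan sulfate proteoglycan of the cell surface, had the most counts per length of the list, 51928 and 60698 in number (0.22), and *Mcam* had 8887 and 10212 (0.20). *Rpsa*, named as a laminin receptor but also a protein of the small ribosomal subunit, had 27826 and 26877 (-0.05). Of the 7 hemidesmosome genes, 6 of them with at least 10000 counts, 0 passed 1.5-fold (2.52% of all genes of that class did), with *Col17a1* at -0.13, *Plec* at -0.15, *Cd9* at 0.03 and *Dst* at 0.23.

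Of the proteases that cut laminins or the matrix around them, 11 were tested. Of these, 4 were lower and 0 higher past 1.5-fold, with a median of -0.26, beside 11.7% lower over all tested genes. By abundance, 3 of the 7 proteases with 1000 to under 10000 counts were lower, beside 2.29% of all genes of that class, and 1 of the 3 with 100 to under 1000 counts, beside 12.2%. With 11 genes and 1 library per group, these are counts without a test. These were *Mmp3* (1076 counts in Ctrl basal and 367 in CL basal, -1.55), *Htra1* (1998 and 1237, -0.69), *Plau* (3701 and 2337, -0.67) and *Mmp9* (202 and 130, -0.63). *Bmp1*, which trims the α3 chain, had 3586 and 3233 counts (-0.15), and *Mmp14*, a membrane-bound matrix protease, 3987 and 3327 (-0.26). *Mmp2* had 3310 and 3046 (-0.12), and *Plat*, a plasminogen activator, 5988 and 6647 (0.15). Dystroglycan binds laminin through sugars, and of 19 genes of that pathway 2 were lower and 1 higher past 1.5-fold. Over all tested genes, 11.7% were lower and 6.34% higher. The counts are close to these shares and are no result about the list. The lower genes were *Dolk* (96 and 42 counts, -1.16) and *Dpm3* (65 and 40, -0.68), both with few counts. The higher gene was *Gmppb* (116 and 191, 0.71).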

How the data were processed

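Total RNA of sorted basal cells was made into libraries with a SMARTer mRNA kit and sequenced on an Illumina HiSeq instrument, 1 library per group. The authors deposited raw read counts per gene over annotated exons (the column layout of featureCounts) and each gene's exon length in bases; the processing notes name GRCm38 (mm10). The aligner, annotation release, strand setting and filters were not given in the sources used here. A deposited ratio and its log2 were not used. The members and all gene lists were chosen with earlier results of these data known.

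Counts were scaled by TMM in edgeR 4.0.16 (R 4.3.3; factor of CL basal 0.987, of Ctrl basal 1.01). A minimum of 20 counts summed over the libraries left 17356 genes, which were tested, which, with 1 library per group, means placed past 1.5-fold or 2-fold or not. Log2 fold changes used a prior count of 2, and intervals were exact (Clopper-Pearson, 95%, scipy 1.17.1). The code was run on simulated counts with counting error only, which cannot show how far counting both mates narrows the intervals. All 9 chains were named. Of each further list, the genes past 1.5-fold with at least 100 counts and the most abundant per length were to be named. The text above did not keep to this for every list. Left out were, among others, luminal *Krt19* (log2 fold change -1.11), pericyte *Notch3* (-0.71) and endothelial *Egfl7* (-0.66). Of the 11 luminal markers, 9 were lower past 1.5-fold and all 11 were below 0. Other genes were picked for their role after their values were seen. Gene IDs were matched by symbol to GENCODE M21. Symbols absent from the table were older or newer names of listed genes, except *Ntn3*. Alternatives changed the scaling (total counts, DESeq2 1.42.0 size factors, upper quartile), prior count, filter, depth, trends, mate counting and assumed spread.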

Additional observations from a re-analysis of the deposited data

How the results depend on the processing

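The number of laminin chains past 1.5-fold and past 2-fold stayed at 1 under other scalings, prior counts of 0.5 and 5, other filters, a thinned CL basal library, and with a trend on mean expression or gene length taken out. In place of the fold threshold, edgeR's exact test at an assumed coefficient of variation of 0.2 or 0.4 called 0 of the chains; the fold itself is the same. Over all genes, the number past 1.5-fold was 3129 and past 2-fold 1190. Without a filter on low counts these became 8626 and 4549 (more genes entered), and with at least 100 counts 1335 and 311 (fewer genes entered). Of 99 values of single chains under the alternatives, 85 stayed within the main 95% interval and 0 changed sign. The other 14 belonged to chains with narrow intervals, with the total counts, the upper quartile or the trend on mean expression. Scaling moved the median of all genes from -0.045 (total counts) to 0.029 (upper quartile). With the longest coding transcript as the length, a setting added after seeing the data, *Lamb3* went from below *Lamc1* to above it, 1.14 times in Ctrl basal and 1.16 times in CL basal. *Lama3* over *Lamb3* went to 0.819 in CL basal, and *Lama1* over *Lama4* to 0.557 in Ctrl basal. Intervals were counted under each scaling after seeing the data too. The 13 differences between chains stayed within their intervals under thinning. Halved counts leave these differences the same by construction and move a fold change only through the prior count and the filter, so they bear on the width of the intervals alone. No paired analysis was possible because there was only 1 library on each side. Depth limits *Lama2* most, with 507 counts over both libraries.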

Other observations

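The table also held genes outside the basement membrane that handle laminins on their way out of the cell and at its inner face. Of 12 genes of folding and export in the secretory pathway, 0 passed 1.5-fold, and 8 had values above 0, with a median log2 fold change of 0.16. Of the 12, 8 had at least 10000 counts, a class in which 2.52% of all genes passed 1.5-fold in either direction and the median was 0.09, so the 0 is no result about the list. The chaperone *Hspa5* had 61396 counts in Ctrl basal and 78092 in CL basal (0.34, 95% interval 0.33 to 0.36), *Calr* 76518 and 97663 (0.35), *Hsp90b1* 57673 and 66914 (0.21) and *P4hb*, the disulfide isomerase, 20745 and 23831 (0.20). The members below 0 were *Tango6* (211 and 153 counts, -0.46), *Preb* (2197 and 1943, -0.18), *Mia3* (6896 and 6401, -0.11) and *Serpinh1* (9292 and 9232, -0.01). Of 13 genes of integrin adhesion sites, 7 with 1000 to under 10000 counts and 6 with at least 10000, 0 passed 1.5-fold, beside 3.47% and 2.52% of all genes of these classes, with a median of -0.10 and values from -0.50 (*Zyx*, 4186 and 2969 counts) to 0.44 (*Tln2*, 726 and 986). The kindlins *Fermt1* (10124 and 9236 counts) and *Fermt2* (9170 and 8603) were at -0.14 and -0.10, and *Vcl* (vinculin) at -0.06. The netrins, which share the laminin N-terminal fold, had 4 genes tested, 3 of them with 1000 to under 10000 counts, and 0 past 1.5-fold. Of all genes of that class 3.47% passed, so the 0 is no result about the netrins. Their values ran from -0.54 (*Ntn1*, 749 and 516 counts) to 0.40 (*Ntng2*, 88 and 117). For these lists too there is 1 library per group and no test.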
